A study of Rattus norvegicus with 18 samples.

Results

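Cell division in inflamed joint lining was followed through 44 genes of the cell cycle in the knee synovial tissue of rats. The genes were taken by name: a probe belonged to a gene where the array file gave the gene's symbol or a current synonym of it, and the brightest probe over all arrays stood for the gene. Of the 44 genes, 41 had a probe, among 35069 genes and transcripts with a probe in all. No probe was found for Cenpe, Cdca3 or Ndc80. Kif2c, Mcm5 and Nusap1 were well above background on too few arrays (2, 2 and 5 of 18) to pass the filter, which asked for all 3 arrays of at least 1 group, so 38 genes were tested.

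RNA of male Lewis rats, 6 to 8 weeks old, was measured on 18 single-colour arrays, 3 in each of 6 groups. The groups were normal rats (control), rats with adjuvant-induced arthritis (AIA), rats with AIA in a cold form (AIA-cold) or a hot form (AIA-hot), and rats of each form given WTD (AIA-cold-WTD and AIA-hot-WTD), a Chinese herbal formula. All groups but the control therefore carry the arthritis. The sources used here do not give how the cold and hot forms were set up, how WTD was dosed, or which arrays came from separate rats, so the p-values measure the spread between these arrays, which may in part be technical. Titles of WTD arrays hold an unexplained letter (G, Z or D). The study had 10 groups of 6 rats, and the groups given other compounds are not analysed here.

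Dividing cells pass through a phase of DNA copying (S phase) and a phase of chromosome separation (mitosis). The MCM proteins form the helicase that is loaded at replication origins, Pcna is the sliding clamp of the DNA polymerases, and ribonucleotide reductase, thymidylate synthase and thymidine kinase supply nucleotides. Mitosis is entered when Cdk1 is bound by the A and B cyclins, is run by Plk1, the Aurora kinases, the checkpoint kinases and the kinesin motors, and ends when Cdc20 and Ube2c mark the cyclins for destruction. In arthritic joints the synovial lining thickens, and proliferating fibroblasts, inflammatory cells and the marrow next to the joint can all carry these transcripts. In a piece of tissue, fewer dividing cells and less RNA per dividing cell cannot be told apart.

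The labelled tissue carried its markers: all 14 synovial fibroblast markers fixed for the check were measured, with a mean level of 3.70 to 4.90 (log2, relative to the array's 75th percentile, the scale of every level below). Adipocyte markers (9 of 10 measured) averaged 2.22 to 5.44, and endothelial markers (10 of 10) 0.95 to 2.52. Control array 1 stood apart. Its 75th percentile signal was 68.9, against 201 to 331 on the other 17 arrays, 43.3% of its probes were well above background against 56.4% to 76.5%, and 16 of the 38 genes were well above background on it, against 27 to 38 on the others. The lowest level well above background on it was -1.86, so the values of dim genes there are bounds rather than levels, and the main differences from control are also given without it. Detection also differed between groups. The share of probes well above background was 56.4% to 60.0% in AIA, 56.9% to 63.8% in AIA-hot and 62.6% to 67.3% in AIA-hot-WTD. It was 64.2% to 68.3% in AIA-cold and 71.5% to 76.5% in AIA-cold-WTD. AIA, low in cell cycle genes below, was thus low in detection, and AIA-cold-WTD high in both, while AIA-hot array 2 (56.9%) ran the other way. The part of detection in those levels was not tested. Across the arrays, 15 of the 38 genes were well above background on all 18. No control array was above background for Aurkb, Cenpf, Cenpm and Kif11, and no AIA array for those 4 or for Ccnb2, Rrm2, Spc25 and Tpx2.

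The probes of 5 genes whose values carry most of what follows are shown, since they fix which transcripts were read: the proliferation marker Mki67, the mitotic kinase Cdk1, the replication genes Pcna and Mcm7, and the kinetochore gene Cenpm. Each is 60 bases of the transcript, 5′ to 3′, as deposited. In the rat build rn4, per the file headers, they lie at chr1:195310355-195313039 (Mki67, minus strand), chr20:20043755-20043814 (Cdk1, plus), chr3:120008997-120009056 (Pcna, minus), chr12:17608669-17609371 (Mcm7, minus) and chr7:120613962-120616236 (Cenpm, minus). The Mki67, Mcm7 and Cenpm intervals span 2685, 703 and 2275 bases, longer than the probe, so these probes join pieces that are apart in the genome.
Mki67: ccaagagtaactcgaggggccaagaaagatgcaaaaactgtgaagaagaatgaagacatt
Cdk1: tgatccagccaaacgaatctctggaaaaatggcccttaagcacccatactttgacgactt
Pcna: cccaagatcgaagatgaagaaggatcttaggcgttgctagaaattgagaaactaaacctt
Mcm7: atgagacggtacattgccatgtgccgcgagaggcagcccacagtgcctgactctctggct
Cenpm: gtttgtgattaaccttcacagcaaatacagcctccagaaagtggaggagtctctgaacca

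Genes of mitosis and genes of S phase are known for different promoter words: the cell cycle homology region (CHR, TTTGAA) with CCAAT boxes in the first, and E2F sites in the second. Promoters of 36 of the 44 genes were matched in RefSeq (build GRCr8), each 300 bases long, from 250 before to 50 after the start of the gene. Both strands were searched for CCAAT, for TTTGAA and for the E2F words TTTCCCGC, TTTCGCGC, TTTGGCGC and TTTGCCGC. TTTGAA was present in 17 of 26 mitotic genes and 1 of 10 S phase genes (Mcm2), against 18.3% of all 33469 promoters of this length. CCAAT and TTTGAA occurred together in 13 of the 26 mitotic genes and in 0 of the 10 S phase genes, against 7.41% of all promoters. An E2F word was present in 6 of the 10 S phase genes (Mcm2, Mcm3, Mcm5, Mcm6, Mcm7 and Tyms) and 1 of the 26 mitotic genes (Cdk1), against 2.14% of all. CCAAT was present in 18 of 26 mitotic and 6 of 10 S phase genes, against 37.5% of all promoters, and in at least 2 copies in 13 and 4 of them, against 11.2% of all.

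The stretch from 150 bases before to 30 after the start is shown for 3 mitotic genes and 3 S phase genes, to set the words of the 2 sets side by side. Capitals mark the words that lie whole within the stretch. In GRCr8 these are chr1:199952564-199952743 (Mki67, minus), chr20:19265143-19265322 (Cdk1, plus), chr5:137255770-137255949 (Cdc20, minus), chr9:30733717-30733896 (Mcm3, minus), chr12:22163149-22163328 (Mcm7, minus) and chr3:139955791-139955970 (Pcna, minus).
Mki67: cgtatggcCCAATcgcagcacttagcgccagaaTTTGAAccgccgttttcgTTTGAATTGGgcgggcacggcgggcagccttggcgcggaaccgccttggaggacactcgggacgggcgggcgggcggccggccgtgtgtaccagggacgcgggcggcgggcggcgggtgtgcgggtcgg
Cdk1: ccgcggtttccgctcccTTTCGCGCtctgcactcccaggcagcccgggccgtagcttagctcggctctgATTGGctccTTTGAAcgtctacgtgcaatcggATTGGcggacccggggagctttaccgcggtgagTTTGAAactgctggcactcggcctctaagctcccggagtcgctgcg
Cdc20: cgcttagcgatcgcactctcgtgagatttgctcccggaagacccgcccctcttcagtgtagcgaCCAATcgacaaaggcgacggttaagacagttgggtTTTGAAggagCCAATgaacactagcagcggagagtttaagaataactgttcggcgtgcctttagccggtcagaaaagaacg
Mcm3: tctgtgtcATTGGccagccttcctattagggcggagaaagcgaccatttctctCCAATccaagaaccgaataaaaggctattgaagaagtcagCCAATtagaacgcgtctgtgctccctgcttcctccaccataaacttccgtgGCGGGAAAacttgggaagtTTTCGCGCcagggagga
Mcm7: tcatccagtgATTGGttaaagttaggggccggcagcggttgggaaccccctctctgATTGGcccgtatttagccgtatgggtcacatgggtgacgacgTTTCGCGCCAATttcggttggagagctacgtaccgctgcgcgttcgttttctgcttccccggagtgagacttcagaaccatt
Pcna: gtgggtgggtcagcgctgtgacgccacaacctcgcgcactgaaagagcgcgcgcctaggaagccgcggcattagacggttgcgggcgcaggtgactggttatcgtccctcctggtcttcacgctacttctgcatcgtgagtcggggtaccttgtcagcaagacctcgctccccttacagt
Mki67, Cdk1 and Cdc20 hold both CCAAT (or its complement ATTGG) and TTTGAA, and in Mki67 an ATTGG shares its A with the end of a TTTGAA. Mcm3 and Mcm7 hold CCAAT and an E2F word, which share letters in Mcm7, and the Pcna stretch holds none of these words. A match is a description of letters, and binding was not measured.

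The levels of most of the 38 genes were high on the same arrays and low on the same arrays, and arrays of 1 group could lie at both ends. With each gene centred on its own mean over the 18 arrays, the median of the 38 read -0.01, -0.04 and -0.28 on the 3 control arrays, -0.29, -0.73 and -0.60 on the AIA arrays, and -0.22, -0.45 and 0.32 on the AIA-cold arrays. It read 0.55, 0.02 and 0.68 on the AIA-cold-WTD arrays, 0.71, 0.30 and -0.86 on the AIA-hot arrays, and -0.18, 0.82 and 0.02 on the AIA-hot-WTD arrays. All 3 AIA arrays lay below all 3 control arrays, AIA-cold-WTD was the group with no array below 0, and AIA-hot held both 1 of the highest arrays and the lowest of all. On AIA-hot-WTD array 2 all 38 genes were above their own mean, on AIA-hot array 1 and on AIA-cold-WTD arrays 1 and 3 it was 35 of 38 each, and on AIA array 2 it was 0. AIA-hot array 3 was the lowest array of all for 17 of the 38 genes and among the lowest 3 for 29. Differences between groups made up a median of 37.1% of a gene's variance over arrays for the 38 genes and 32.4% for all genes, while the spread within groups was wider for the 38 (median SD 0.62) than for all genes (0.31).

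**Figure D1:**
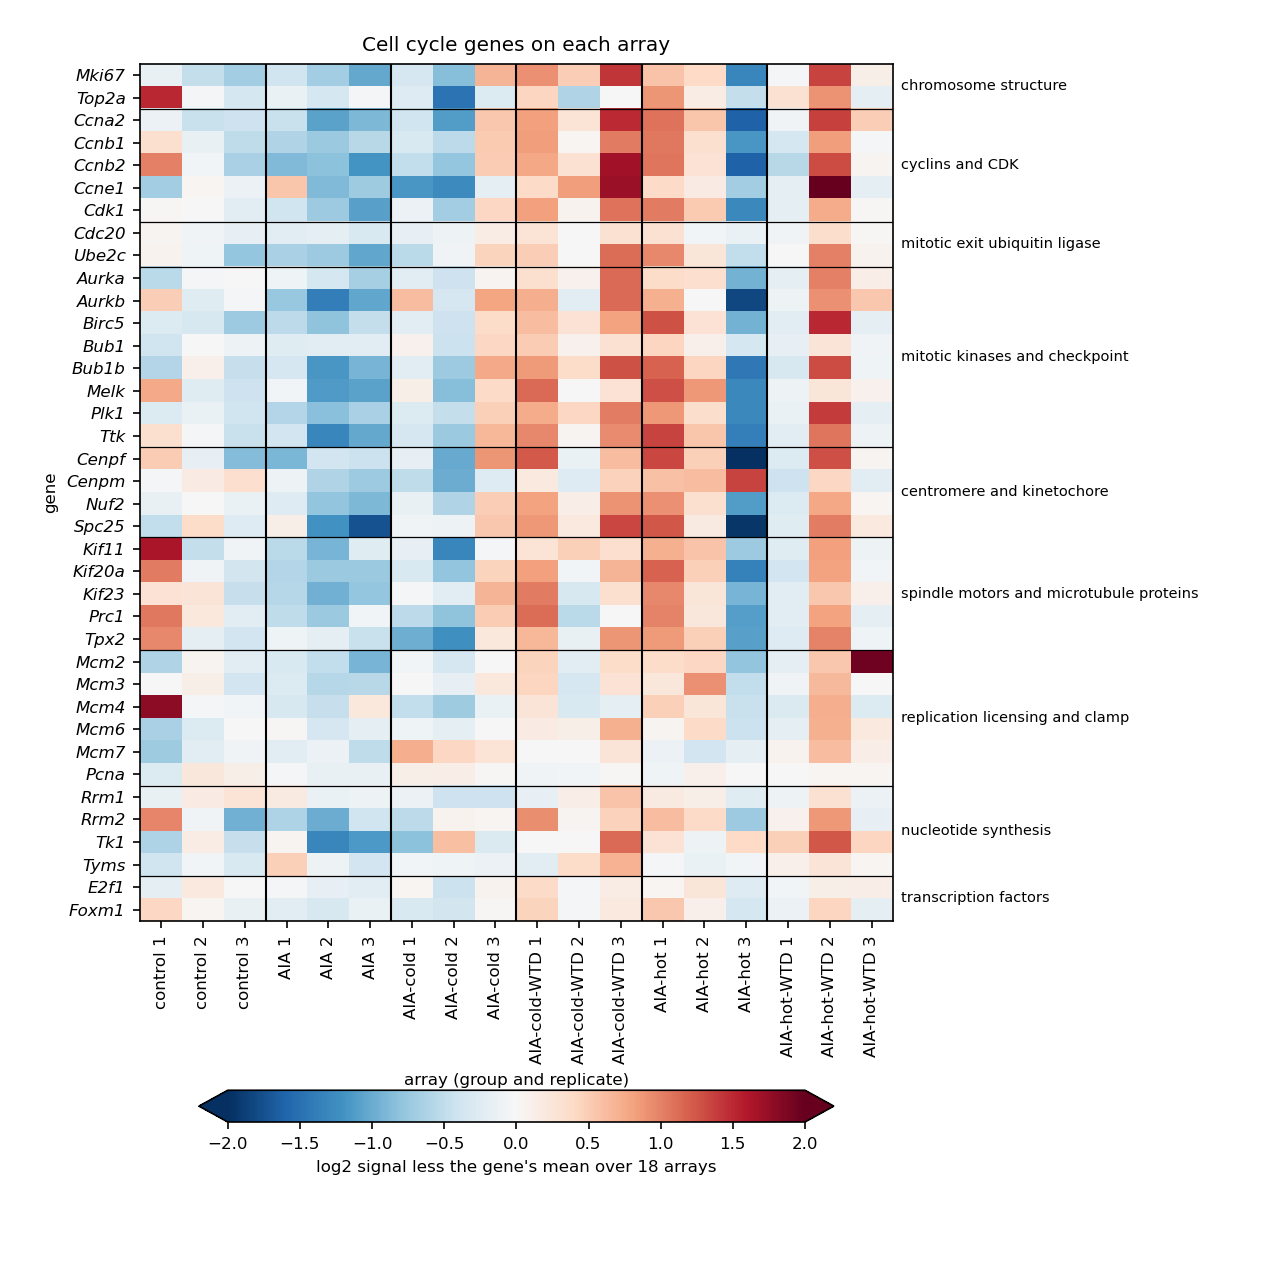
Each cell is a gene's log2 signal on an array less its mean over the 18 arrays (colour scale cut at -2 and 2), with the 38 tested genes in rows by role and the arrays in columns by group. Whole columns share a colour: AIA-hot-WTD 2 and AIA-hot 1 are red over most genes and AIA-hot 3 is blue, while the Pcna row is nearly white.

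Genes of mitosis swung further than genes of S phase. The range over the 18 arrays had a median of 2.49 log2 units for the 26 mitotic genes tested, from 0.66 (Cdc20) to 3.4 (Cenpf), and of 1.47 for the 12 S phase genes, from 0.49 (Pcna) to 3.27 (Ccne1). The median SD within groups was 0.66 and 0.36. The median centred level of the mitotic genes ran from -1.15 on AIA-hot array 3 to 0.96 on AIA-hot array 1, 2 arrays of 1 group. That of the S phase genes ran from -0.40 on AIA array 2 to 0.63 on AIA-hot-WTD array 2. By role, the cyclins and Cdk1 spanned -1.29 to 1.48, the centromere and kinetochore genes -1.53 to 1.08, the replication licensing genes and clamp -0.44 to 0.63, and the transcription factors E2f1 and Foxm1 -0.39 to 0.42. The low end of a range is only a bound where a gene was below background on some array, as for Cenpf. Among the 15 genes above background on all 18 arrays, the median range was 2.45 for 12 mitotic genes and 0.81 for 3 S phase genes (Mcm3, Pcna and E2f1).

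None of the 38 genes passed the limma test (Benjamini-Hochberg adjusted p under 0.05 over all 23606 genes) in the test over the 6 groups or in any of the 11 comparisons. Over the 6 groups 0.0297% of all genes passed, and 4 of the 38 had an unadjusted p under 0.05 (Cenpm, Mcm7, Tk1 and Ube2c), where 10.8% of all genes did, about the same share. The smallest adjusted p of the 38 was 0.197 (Cenpm). The same count by comparison was between 1 and 5 genes of 38, and is given with the share of all genes below.

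Mki67, the standard marker of dividing cells, coats mitotic chromosomes. Its signal was -0.36, -0.68 and -0.91 in control, -0.61, -0.90 and -1.23 in AIA, -0.54, -1.06 and 0.47 in AIA-cold, and 0.37, 0.19 and -1.51 in AIA-hot. With WTD it was 0.70, 0.29 and 1.22 in AIA-cold-WTD, and -0.24, 1.15 and -0.09 in AIA-hot-WTD. All 3 AIA-cold-WTD arrays were above every control and every AIA array, while AIA-cold array 3, AIA-hot array 1 and AIA-hot-WTD array 2 lay within their range. The mean of AIA-cold-WTD was 0.74 ± 0.46 (SD, n = 3) and that of control -0.65 ± 0.28, a difference of 1.39 ± 0.50 (SE; limma adjusted p = 0.238, 95% interval 0.31 to 2.47) and 1.53 without control array 1. The second Mki67 probe gave 0.98. AIA-cold-WTD and control arrays shared no slide, so slide and group cannot be told apart in this difference.

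Top2a untangles DNA before chromosomes separate. It read -0.40, -1.93 and -2.25 in control, -2.04, -2.26 and -1.94 in AIA, -2.16, -3.38 and -2.18 in AIA-cold, and -1.03, -1.75 and -2.39 in AIA-hot. In the WTD groups it read -1.47, -2.51 and -1.92 (AIA-cold-WTD) and -1.60, -1.0 and -2.10 (AIA-hot-WTD). Its highest value was on control array 1, and the groups overlapped throughout, except that all AIA-hot-WTD arrays were above all AIA-cold arrays. Its 2 probes differed: AIA-cold-WTD less control was -0.44 by the brighter and 0.79 by the other.

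Cdk1, the kinase that drives entry into mitosis, was at 1.12, 1.09 and 0.87 in control and at 0.69, 0.36 and 0.01 in AIA. It was at 0.97, 0.39 and 1.51 in AIA-cold and at 2.13, 1.62 and -0.20 in AIA-hot. It was at 1.91, 1.16 and 2.18 in AIA-cold-WTD and at 0.90, 1.83 and 1.12 in AIA-hot-WTD. All AIA arrays were below all control arrays (difference -0.68 ± 0.49 SE, limma adjusted p = 0.756, and -0.63 without control array 1), and the AIA-hot arrays reached from the lowest value of all 18 to nearly the highest.

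Ccne1, the cyclin of entry into S phase, had the smallest p of its role over the 6 groups. It read -1.89, -1.15 and -1.30 in control, -0.63, -2.07 and -1.90 in AIA, -2.35, -2.46 and -1.38 in AIA-cold, and -0.80, -1.03 and -1.88 in AIA-hot. It read -0.80, -0.35 and 0.54 in AIA-cold-WTD and -1.38, 0.81 and -1.37 in AIA-hot-WTD. Each AIA-cold-WTD array was above each AIA-cold array, with means of -0.20 ± 0.69 and -2.06 ± 0.59 (SD, n = 3) and a difference of 1.86 ± 0.58 SE (limma adjusted p = 0.628, the smallest of the 38 genes there). A second, dimmer probe gave 1.33 in the same comparison. The mitotic cyclins Ccna2, Ccnb1 and Ccnb2 had ranges of 3.10, 2.22 and 3.30 and were lowest on AIA-hot array 3, all of them. Ccnb2 was above background on no AIA array and on 2 of 3 control arrays. Control array 1, the highest of the control arrays, was the one below background. Without it, the control mean of Ccnb2 was at least 1.34-fold that of AIA. The 1.84-fold obtained with it is not a lower bound.

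**Figure D2:**
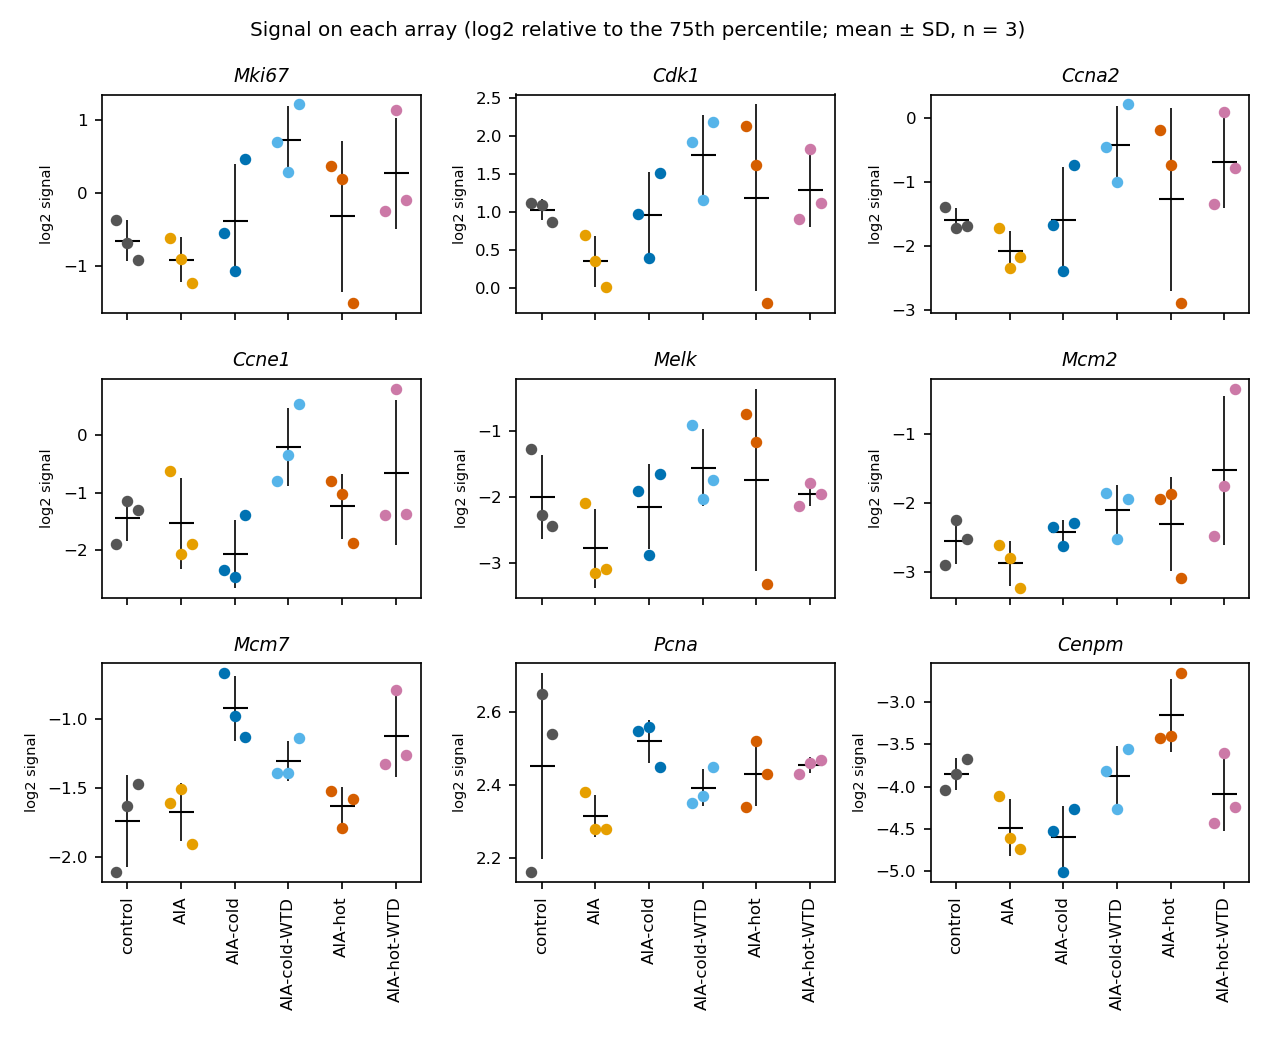
Points are the log2 signal of 9 genes on each of the 18 arrays, with the mean and SD of each group (n = 3) in black; the vertical scales differ between panels. Mki67, Cdk1, Ccna2 and Melk share a wide spread in AIA-hot, with 2 arrays high and 1 at the bottom, Pcna stays between 2.16 and 2.65, Mcm7 is highest in AIA-cold and Cenpm in AIA-hot.

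Aurkb, the kinase that corrects chromosome attachments, had the smallest p of the mitotic kinases and checkpoint genes, but was above background on 8 of 18 arrays only. It read -3.91, -4.63 and -4.42 in control, -5.16, -5.77 and -5.43 in AIA, -3.78, -4.73 and -3.60 in AIA-cold, and -3.68, -4.41 and -6.22 in AIA-hot. It read -3.67, -4.61 and -3.26 in AIA-cold-WTD and -4.49, -3.48 and -3.85 in AIA-hot-WTD. Values of control and AIA are below background, so no fold is given for them. Plk1, which triggers mitotic entry, was above background on all arrays, between -1.37 on AIA-hot array 3 and 1.32 on AIA-hot-WTD array 2. Bub1b, Ttk and Melk, kinases or kinase-like proteins of mitosis, had ranges of 2.73, 2.73 and 2.58, all with AIA-hot array 3 as the lowest array. Bub1, also of the checkpoint, spanned 0.93.

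Cenpm, a protein of the inner kinetochore, had the smallest p of all 38 genes over the 6 groups. It read -4.04, -3.85 and -3.67 in control, -4.11, -4.61 and -4.74 in AIA, -4.52, -5.01 and -4.27 in AIA-cold, and -3.42, -3.40 and -2.66 in AIA-hot. It read -3.82, -4.27 and -3.55 in AIA-cold-WTD and -4.43, -3.60 and -4.24 in AIA-hot-WTD. Its highest value lay on AIA-hot array 3, where 17 of the 38 genes had their lowest; it was also high on AIA-hot arrays 1 and 2 and low on AIA arrays 2 and 3, as most of the 38 were. The AIA-hot mean was -3.16 ± 0.43 and the AIA-cold mean -4.60 ± 0.38 (SD, n = 3), a difference of -1.44 ± 0.28 SE for AIA-cold less AIA-hot (limma adjusted p = 0.309, 0.139 to 1 over the alternatives). It was above background on 9 of 18 arrays, 1 of the 3 AIA-cold arrays among them, and with another background correction (normexp) the difference was -0.39. Nuf2 and Spc25, of the outer kinetochore, and Cenpf, a large coiled protein of the fibrous corona, were each lowest on AIA-hot array 3.

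Kif23, a motor of cell separation, read -1.64, -1.68 and -2.39 in control, -2.51, -2.89 and -2.71 in AIA, -1.98, -2.14 and -1.25 in AIA-cold, and -0.97, -1.69 and -2.87 in AIA-hot. It read -0.89, -2.25 and -1.61 in AIA-cold-WTD and -2.14, -1.40 and -1.83 in AIA-hot-WTD. The AIA arrays were below all arrays of every group but AIA-hot, whose array 3 lay among them. Kif20a, Prc1 and Tpx2, which act in the central spindle and in spindle assembly, had ranges of 2.52, 2.22 and 2.23. Kif11, the motor that pushes the poles apart, was highest on control array 1 (-2.17), where it was below background.

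Ube2c, the enzyme that starts the marking of cyclins for destruction, was at -0.67, -0.82 and -1.51 in control, -1.39, -1.46 and -1.77 in AIA, -1.28, -0.80 and -0.29 in AIA-cold, and 0.22, -0.50 and -1.23 in AIA-hot. It was at -0.25, -0.74 and 0.38 in AIA-cold-WTD and at -0.73, 0.28 and -0.67 in AIA-hot-WTD. Every AIA array was below every AIA-hot array (AIA-hot less AIA 1.04 ± 0.40 SE, limma adjusted p = 0.878) and below every AIA-cold array. Cdc20, the activator of the same ligase, kept within 0.66 log2 units over all arrays.

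Mcm7, a subunit of the replicative helicase, was the S phase gene that followed the groups most closely. It read -2.11, -1.63 and -1.47 in control, -1.61, -1.51 and -1.91 in AIA, -0.67, -0.98 and -1.13 in AIA-cold, and -1.52, -1.79 and -1.58 in AIA-hot. It read -1.39, -1.39 and -1.14 in AIA-cold-WTD and -1.33, -0.79 and -1.26 in AIA-hot-WTD. All AIA-cold arrays were above all control, AIA, AIA-hot and AIA-cold-WTD arrays. The AIA-cold arrays all lay on slide 4, which held no control, AIA or AIA-hot array. Slide and group therefore cannot be told apart in those comparisons. AIA-cold less control was 0.81 ± 0.20 SE (means -0.93 ± 0.23 and -1.74 ± 0.34 SD, n = 3; limma adjusted p = 0.068, 0.0586 to 0.427 over the alternatives), the closest any of the 38 came to the threshold outside the alternatives. The difference was 0.63 without control array 1, where Mcm7 was below background, and 0.14 with normexp background correction. WTD went with a lower Mcm7 in the cold form (-0.38 ± 0.20 SE) and a higher one in the hot form (0.50 ± 0.20 SE), with no overlap of arrays in either. The difference of these effects was -0.88 ± 0.28 SE (limma adjusted p = 0.988).

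The other helicase subunits did not share that order. Mcm2 stood at -0.34 on AIA-hot-WTD array 3 and between -3.22 and -1.75 on the other 17 arrays, while Mcm4 was highest on control array 1 (-1.43, against -3.93 to -2.49 on the others). Mcm3 and Mcm6 spanned 1.49 and 1.36. Pcna, the clamp, was the steadiest of the 38: it read 2.16, 2.65 and 2.54 in control, 2.38, 2.28 and 2.28 in AIA, 2.55, 2.56 and 2.45 in AIA-cold, and 2.34, 2.52 and 2.43 in AIA-hot. It read 2.35, 2.37 and 2.45 in AIA-cold-WTD and 2.43, 2.46 and 2.47 in AIA-hot-WTD. Its lowest value was on control array 1, and a second probe spanned 1.08.

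Tk1, the salvage kinase for thymidine, read -3.68, -2.91 and -3.52 in control, -3.00, -4.36 and -4.21 in AIA, -3.87, -2.46 and -3.35 in AIA-cold, and -2.77, -3.16 and -2.66 in AIA-hot. It read -3.05, -3.05 and -1.92 in AIA-cold-WTD and -2.58, -1.81 and -2.63 in AIA-hot-WTD. All AIA-hot-WTD arrays were above all control and all AIA-hot arrays (AIA-hot-WTD less control 1.03, 0.88 without control array 1, and -0.17 with normexp). Tyms, which makes thymidylate, showed no overlap in the same pairs, and the reductase subunits Rrm1 and Rrm2 spanned 0.99 and 1.97.

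Foxm1, the transcription factor of mitotic genes, read -0.26, -0.63 and -0.82 in control, -0.90, -0.99 and -0.80 in AIA, -0.97, -1.03 and -0.65 in AIA-cold, and -0.13, -0.56 and -1.02 in AIA-hot. It read -0.22, -0.71 and -0.48 in AIA-cold-WTD and -0.78, -0.24 and -0.85 in AIA-hot-WTD. Its swings ran the same way as those of the mitotic genes on AIA-hot arrays 1 and 3 and AIA-hot-WTD array 2, over a range of 0.90. E2f1, the factor of S phase genes, spanned 0.81.

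Plain arthritis against normal tissue: the median difference of the 38 genes, AIA less control, was -0.49 log2 units, against -0.03 for all genes, with 35 genes lower and 3 higher. It was -0.54 for the 26 mitotic genes, all lower, and -0.13 for the 12 S phase genes, 9 of them lower. None passed (0% of all genes did), and 1 of the 38 had an unadjusted p under 0.05 (6.29% of all genes). The arrays did not overlap, with AIA lower, for 11 genes (Aurkb, Ccna2, Ccnb1, Ccnb2, Cdc20, Cdk1, Cenpm, Kif20a, Kif23, Nuf2 and Plk1), where 5.34% of all genes did so. Of these, Aurkb and Cenpm were above background on no array of either group, so their order there compares background values. No gene of the 38 was higher in AIA without overlap, against 5.32% of all. Without control array 1 the median was -0.32, and on slide 1, which held all controls and AIA array 1, it was -0.18 with 29 of 38 lower. It was below 0 under every alternative, from -0.56 to -0.18.

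The hot form against plain arthritis: AIA-hot less AIA had a median of 0.68 (all genes -0.04), with 37 of 38 genes higher and 4 at an unadjusted p under 0.05 (5.13% of all genes). All 26 mitotic genes were higher, with a median of 0.72, and the S phase median was 0.22. None passed (0% of all genes), and 3 genes did not overlap (Cdc20, Cenpm and Ube2c; 4.06% of all genes did so with AIA-hot higher); 0 did so with AIA-hot lower (5.84%). Cenpm was above background on no AIA array and on all 3 AIA-hot arrays. The size rested on single AIA-hot arrays: the median was 0.21 without array 1, 0.43 without array 2 and 1.12 without array 3. Without array 3, 24 of 38 genes had an unadjusted p under 0.05, against 12.5% of all genes in the same fit, and the smallest adjusted p of the 38 was 0.182. Array 3 was the lowest of all arrays for 17 of the 38 genes. A higher count without it follows from those same values and is no separate support. On slide 2, which held AIA-hot arrays 1 and 2 and AIA arrays 2 and 3, all 38 genes were higher, with a median of 1.24. With slide as a fixed block 1 gene passed: Melk, a kinase of proliferating cells (2.18 ± 0.42 SE, limma adjusted p = 0.0474, 0.0474 to 1 over the alternatives), while 142 of all genes did. The blocked difference rests on slide 2 alone, the only slide with both groups, so AIA-hot array 3 and AIA array 1 did not enter it. It repeats the slide 2 values and is no separate support. Melk read -2.09, -3.16 and -3.10 in AIA and -0.74, -1.16 and -3.32 in AIA-hot. With normexp background correction the median was 0.17.

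The cold form against plain arthritis: AIA-cold less AIA had a median of 0.48 (all genes -0.01), with 31 of 38 genes higher and 2 at an unadjusted p under 0.05 (9.04% of all genes). None passed (0% of all genes). The arrays did not overlap, with AIA-cold higher, for 11 genes (Aurkb, Birc5, Ccnb1, Ccnb2, Cdc20, Kif23, Mcm3, Mcm7, Pcna, Plk1 and Ube2c), against 10.7% of all genes, and 0 did so with AIA-cold lower (13.5%). Of these, Aurkb and Ccnb2 were above background on no AIA array, and Aurkb on only 2 of 3 AIA-cold arrays. Without AIA-cold array 3 the median was 0.18 and with normexp 0.03, with 22 of 38 higher. No slide held arrays of both groups. These comparisons with AIA share the same 3 AIA arrays, so their directions are not independent.

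Both forms against normal tissue lay near 0. No slide held arrays of more than 1 of the groups control, AIA-cold and AIA-hot. AIA-cold less control had a median of 0.02 (all genes -0.04), with 20 genes higher and 18 lower, and 0.07 without control array 1. There 3 of the 38 had an unadjusted p under 0.05, against 18.7% of all genes, and 0.534% of all genes passed. Mcm7 was higher with no overlap (10.8% of all genes), and Cenpm and Mcm4 were lower with none (14.1%), Cenpm again against control values below background. AIA-hot less control had a median of 0.13 (all genes -0.05), with 27 higher and 11 lower, and 0.22 without control array 1. There 1 of the 38 had an unadjusted p under 0.05, against 12.1% of all genes, and 0.0551% of all genes passed. Cenpm alone was higher in AIA-hot without overlap (5.02% of all genes), against control values that were all below background, and 0 were lower without overlap (8.06%). The signs of both medians turned with single arrays or settings: AIA-cold gave -0.20 without its array 3, -0.08 without control array 3 and -0.33 with normexp, and AIA-hot gave -0.20 without its array 1, -0.01 without its array 2, 0.54 without its array 3 and -0.20 with normexp. AIA-cold less AIA-hot was -0.19 (all genes 0.01), with 33 of 38 lower, 2 at an unadjusted p under 0.05 (5.49% of all genes) and 0.00847% of all genes called, and it turned to 0.10 without AIA-hot array 1 and was -0.68 without AIA-hot array 3. Mcm7 was higher and Cenpm lower there without overlap (8.26% and 6.77% of all genes).

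**Figure D3:**
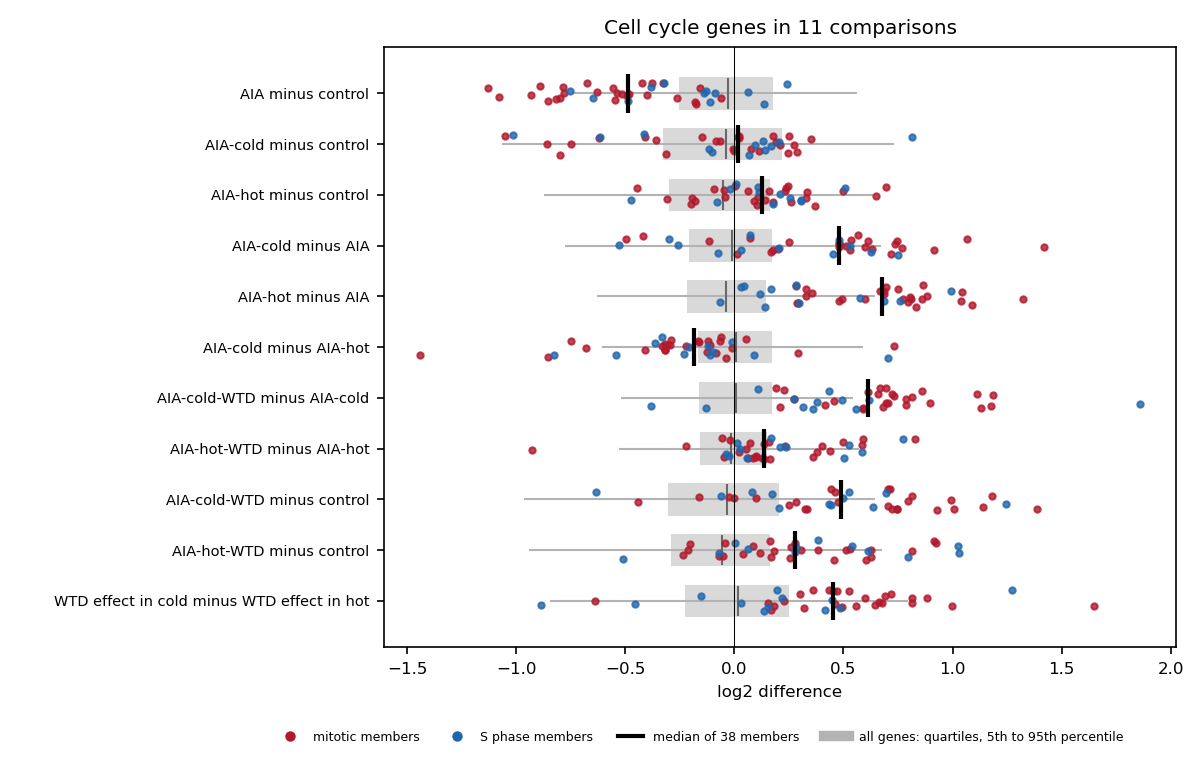
Each point is a gene's log2 difference in a comparison, red for the 26 mitotic and blue for the 12 S phase genes, with the median of the 38 as a black bar; grey boxes and lines are the quartiles and the 5th to 95th percentiles of all genes tested. In AIA less control 35 of 38 points lie left of 0, and 37 lie right of it in AIA-hot less AIA and 36 in AIA-cold-WTD less AIA-cold; no point passed the test.

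WTD in the cold form: AIA-cold-WTD less AIA-cold had a median of 0.61 (all genes 0.01), with 36 of 38 genes higher and 4 at an unadjusted p under 0.05 (6.08% of all genes). All 26 mitotic genes were higher, with a median of 0.69, and 10 of 12 S phase genes, with a median of 0.37. None passed, and 0.00847% of all genes did. The arrays did not overlap for Aurka, Ccne1, Cenpm, Kif11 and Mcm6, higher with WTD (7.68% of all genes), and for Mcm7 and Pcna, lower (6.70%). The median stayed between 0.44 and 0.84 when any 1 array was left out, was 0.28 with normexp, and was 0.78 on slide 4, where AIA-cold-WTD array 1 lay with the 3 AIA-cold arrays. Against control, AIA-cold-WTD had a median of 0.49 (all genes -0.04), with 32 of 38 higher, 5 at an unadjusted p under 0.05 (15.1% of all genes) and 0.0297% of all genes passing. There 12 genes did not overlap, all higher (Aurka, Birc5, Bub1, Bub1b, Ccna2, Ccne1, Cdk1, Mcm6, Mcm7, Mki67, Nuf2 and Plk1; 6.46% of all genes), and 0 were lower (9.84%). With normexp that median was -0.03, with 18 of 38 higher. Without control array 1 it was 0.66. No slide held both AIA-cold-WTD and control arrays, so slide and group cannot be told apart in that comparison.

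WTD in the hot form: AIA-hot-WTD less AIA-hot had a median of 0.13 (all genes -0.01), with 31 of 38 genes higher and 2 at an unadjusted p under 0.05 (2.29% of all genes). None passed (0% of all genes). Mcm7, Tk1 and Tyms were higher without overlap (2.64% of all genes), and Cenpm lower (4.43%). The sign rested on single arrays: the median was -0.27, with 8 of 38 higher, without AIA-hot array 3, -0.14 without AIA-hot-WTD array 2, and 0.56 without AIA-hot array 1. On slide 3, where AIA-hot array 3 lay with the AIA-hot-WTD arrays, it was 1.23. Against control, AIA-hot-WTD had a median of 0.28 (all genes -0.06), with 30 of 38 higher, 3 at an unadjusted p under 0.05 (13.5% of all genes) and 0.0805% of all genes passing. Birc5, Ccna2, Mcm7, Mki67, Tk1 and Tyms were higher without overlap (6.78% of all genes), and 0 were lower (11.2%). That median was 0.41 without control array 1, 0.04 without AIA-hot-WTD array 2, 0.15 without control array 3, 0.47 without AIA-hot-WTD array 1 and -0.14 with normexp. AIA-hot-WTD and control arrays shared no slide either, so these groups could not be compared within a slide.

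The WTD effect in the cold form less that in the hot form had a median of 0.45 (all genes 0.01), with 34 of 38 genes higher, 2 at an unadjusted p under 0.05 (4.18% of all genes) and 0% of all genes passing. With slide as a fixed block it was -0.31, where only array 3 of AIA-hot and only array 1 of AIA-cold-WTD entered. With 1 array left out it ranged from 0.13 (without AIA-hot array 1) to 0.90 (without AIA-hot array 3). That of Cenpm was 1.65 ± 0.40 SE (limma adjusted p = 0.988, 0.458 to 1 over the alternatives) and 0.35 with normexp, with 1 of 3 AIA-cold arrays above background. For none of the 38 was a difference between the forms in the response to WTD shown.

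Other genes of the cell cycle, from 5 lists that hold none of the 44, were set beside them, and no listed gene passed the test in any comparison. Of 52 genes of mitosis and cytokinesis 37 were measured, and their median centred level was lowest on AIA-hot array 3 (-0.74) and highest on AIA-cold-WTD array 3 (0.62) and AIA-hot array 1 (0.58). In that list 30 of 37 were lower in AIA than in control (median -0.34), 28 of 37 higher in AIA-hot than in AIA (median 0.33) and 33 of 37 higher in AIA-cold-WTD than in AIA-cold (median 0.55). In the same list 22 of 37 were higher in AIA-cold than in AIA (median 0.13), and 25 of 37 lower in AIA-cold than in control (median -0.15). Pttg1, the securin that guards sister chromatids, ran from 0.07 on AIA array 3 to 2.23 on AIA-cold-WTD array 3, Cenpt from -2.83 on AIA array 2 to -0.26 on AIA-hot-WTD array 2, and Smc2, a condensin subunit, was highest on control array 1 (0.24). Of 37 replication and chromatin assembly genes 33 were measured; 28 were lower in AIA than in control (median -0.20), 21 higher in AIA-cold than in AIA (median 0.03), 22 higher in AIA-hot than in AIA (median 0.08) and 27 higher in AIA-cold-WTD than in AIA-cold (median 0.25). Mcm8, Dbf4, Rpa1 and Pole had the smallest p of that list over the 6 groups (limma adjusted p = 0.244, 0.316, 0.331 and 0.400).

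Regulators of cell cycle entry (29 of 31 measured) kept a median centred level between -0.14 and 0.22 over the arrays. Ccnd2, a D-type cyclin, was at 2.76, 2.41 and 2.29 in control and between 1.67 and 2.34 on all other arrays (limma adjusted p over the 6 groups 0.284). E2f8, a repressor of the E2F family, was above background on 9 of 18 arrays and highest on AIA-cold-WTD array 3 (-0.33) and AIA-hot-WTD array 2 (-0.55; limma adjusted p over the 6 groups 0.391). E2f5 and Chek1 had adjusted p of 0.288 and 0.435. The inhibitors of cyclin-dependent kinases and arrest genes (17 of 18 measured) stayed between -0.22 and 0.15, with 12 of 17 higher in AIA than in control (median 0.11). Among them Cdkn1b, the p27 inhibitor, spanned 1.14 and was lowest on control array 1. In the list of repair in S phase (13 of 17 measured), 11 were lower in AIA than in control (median -0.25) and 12 higher in AIA-cold-WTD than in AIA-cold (median 0.40), with Fanca, Rad51ap1, Fanci and Fancd2 the smallest p (0.429 to 0.586 adjusted by limma's Benjamini-Hochberg step), of which Fanca, Fanci and Fancd2 were above background on 6, 3 and 5 arrays.

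Markers of other cell types differed between the same arrays and groups, though no listed marker passed the test in any comparison. In AIA less control, all 12 skeletal muscle markers (median -1.68), all 11 cartilage markers (-1.92) and all 7 osteoblast markers (-1.05) were lower, and all 9 adipocyte markers higher (0.90). Mean levels in control were 4.70, -2.31 and -0.53 for cartilage, against -1.82 to -1.32 in AIA. They were 1.17, -2.97 and -2.17 for osteoblasts, against -2.90 to -2.52, and 3.14, 4.99 and 4.66 for adipocytes, against 4.86 to 5.44. Control array 1 gave the first value of each, and the other control arrays overlapped the AIA arrays. An exact permutation test of the mean level gave p = 0.5 for cartilage, 0.4 for osteoblasts and 0.2 for muscle and adipocytes. In AIA-hot less AIA, 9 of 11 T and NK cell markers (0.78) and 11 of 14 synovial fibroblast markers (0.48) were higher and all 9 adipocyte markers lower (-0.89). In AIA-cold less AIA, all 7 osteoblast markers (0.67) and 10 of 11 cartilage markers (0.997) were higher. The osteoblast mean level was -3.04, -3.24 and 0.79 in AIA-cold, against -2.90 to -2.52 in AIA. Only AIA-cold array 3 was therefore above the AIA arrays, and arrays 1 and 2 were below all of them. WTD went with higher granulocyte precursor markers in both forms, 7 of 8 in the cold form (1.64) and 8 of 8 in the hot form (1.88). Mature neutrophil markers (4 of 7 measured) were also higher, all 4 in each form (1.72 and 2.38). Of 9 erythroid markers, 7 were higher in the cold form (0.47) and 9 in the hot form (1.75). Their mean level was -1.59, 0.65 and 1.70 in AIA-cold-WTD, overlapping the -0.99, 0.88 and 0.29 in AIA-cold. Exact permutation of the mean level gave p = 0.9 in the cold form and 0.2 in the hot form. In the hot form 11 of 12 skeletal muscle markers were higher (1.24). Their mean level was -1.63, -1.69 and 3.76 in AIA-hot-WTD and -0.83, -1.91 and -0.11 in AIA-hot (exact permutation p = 0.8). Only AIA-hot-WTD array 3 lay above all AIA-hot arrays. Other lists moved with WTD too. In the cold form all 10 macrophage markers (-0.36) and 8 of 9 adipocyte markers (-0.66) were lower, and 6 of 7 osteoblast markers higher (1.52). Exact permutation p was 0.2, 0.9 and 0.4. In the hot form all 9 adipocyte markers were higher (0.67), and 11 of 14 synovial fibroblast markers (-0.40) and 9 of 11 T and NK cell markers (-0.45) lower. Exact permutation p was 0.4, 0.4 and 0.3.

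By array, granulocyte precursor markers (8 of 10 measured, Elane and Ltf not among them) had a mean level of -3.09 to -2.17 in control, -3.21 to -1.39 in AIA, -2.85 to -0.28 in AIA-cold and -2.85 to -1.55 in AIA-hot. In AIA-cold-WTD they read -2.33, 0.45 and 1.59, and in AIA-hot-WTD -1.41, 1.75 and -0.58. The 2 arrays with the highest granulocyte precursor level, AIA-hot-WTD 2 and AIA-cold-WTD 3, were among those with the highest cell cycle level. They also had the highest levels of mature neutrophil markers (3.42 and 3.32) and erythroid markers (2.05 and 1.70). Osteoblast markers (7 of 8, Sp7 not measured) were high on the same 2 arrays (0.81 and -0.03), on AIA-cold 3 (0.79), on AIA-cold-WTD 2 (0.15) and on control 1 (1.17), and at -3.36 to -1.32 on the other 13. Cartilage markers (11 of 14) were at 4.70 on control array 1 and at -2.31 to 1.23 elsewhere. The next arrays in granulocyte precursor level were AIA-cold-WTD 2 (0.45), AIA-cold 3 (-0.28) and AIA-hot-WTD 3 (-0.58). Their median centred levels of the cell cycle genes were 0.02, 0.32 and 0.02.

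AIA-hot 1 and AIA-cold-WTD 1, the other 2 arrays with high cell cycle genes, had a low granulocyte precursor level (-2.44 and -2.33). They had 2 of the 3 highest synovial fibroblast levels (4.73 and 4.90; AIA-hot 2 read 4.87) and the 2 highest levels of T and NK cell markers (11 of 13 measured; -1.35 and -1.42, against -3.15 to -1.91 on the others). AIA-cold-WTD 1 had the lowest adipocyte level (2.22), and AIA-hot 3, the lowest array for the cell cycle genes, 1 of the highest (5.31). The AIA arrays, all low in cell cycle genes, were at 4.86 to 5.44 for adipocytes, and so were AIA-hot-WTD 2 (4.99) and AIA-cold-WTD 3 (5.04), which were among the highest in cell cycle genes. With 3 arrays in each group an exact two-sided permutation test of a list's mean level between 2 groups cannot go below p = 0.1. It gave 0.2 for granulocyte precursors in AIA-cold-WTD less AIA-cold (difference 1.77) and 0.1 in AIA-hot-WTD less AIA-hot (2.20). The part of these cell types in the levels of the cell cycle genes was not tested.

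**Figure D4:**
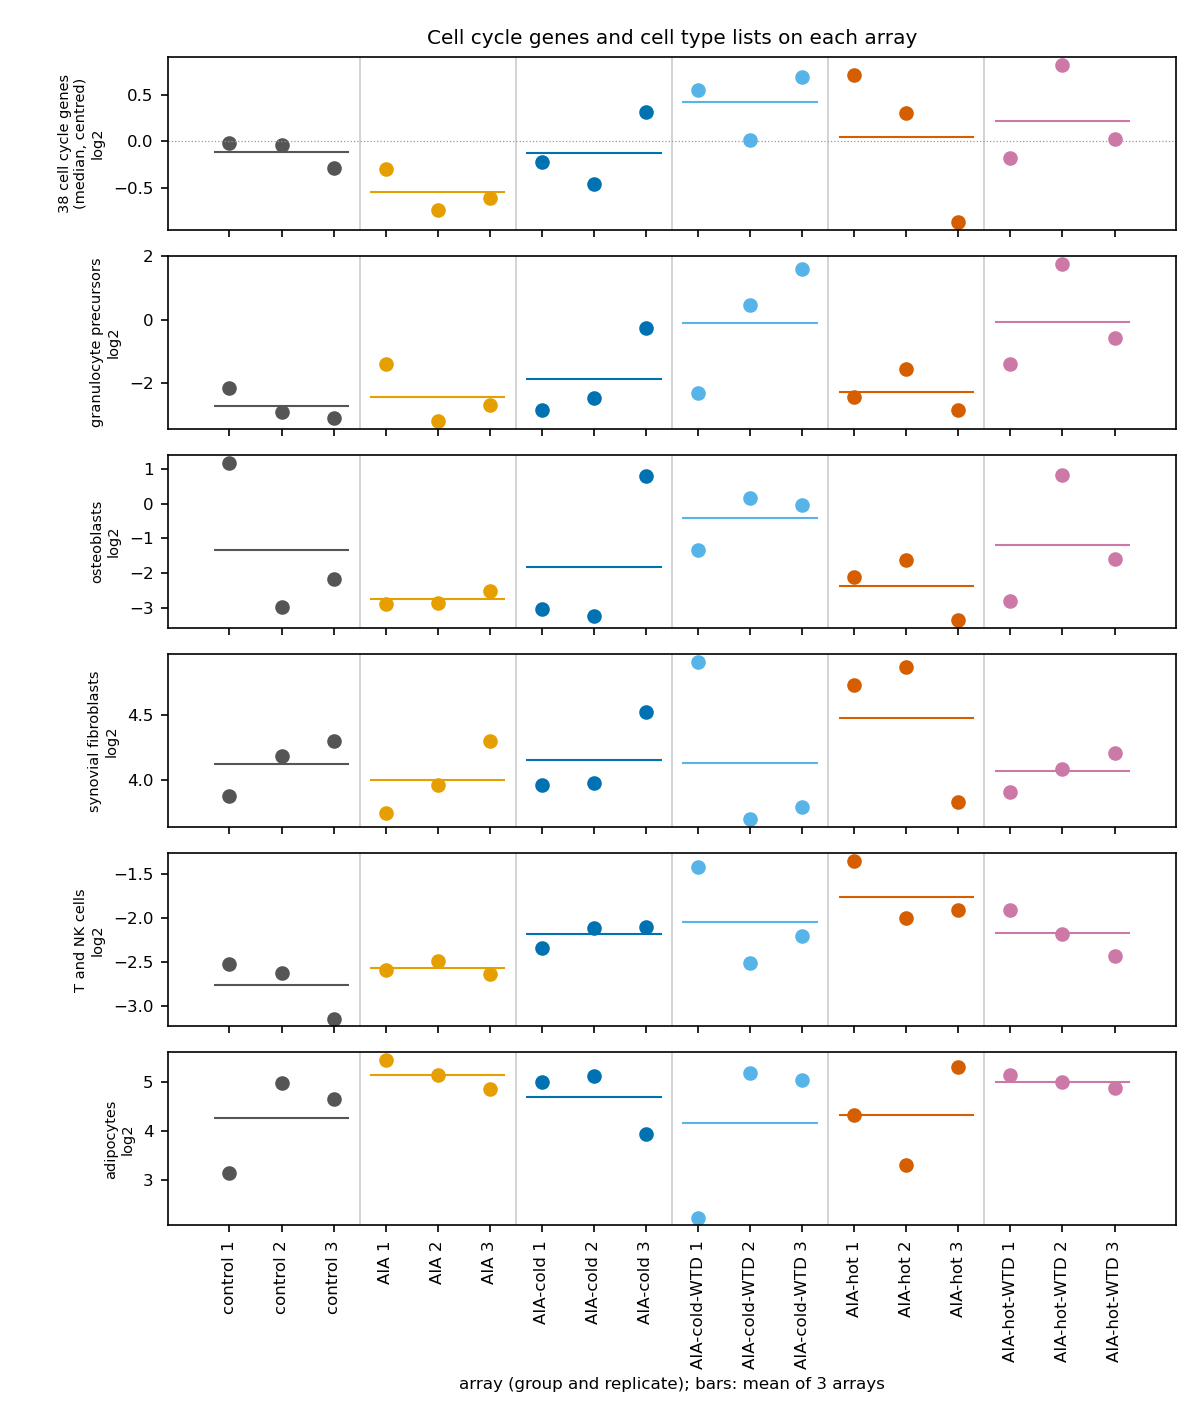
The top panel gives the median centred log2 level of the 38 cell cycle genes on each of the 18 arrays, and the lower panels the mean log2 level of 5 cell type marker lists on the same arrays, with the mean of each group as a line. AIA-hot-WTD 2 and AIA-cold-WTD 3 are high in granulocyte precursors as well as cell cycle genes, while AIA-hot 1 and AIA-cold-WTD 1 are high in cell cycle genes, synovial fibroblast and T and NK cell markers. AIA-cold-WTD 2 is next in granulocyte precursors (0.45) but at 0.02 in cell cycle genes.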

How the data were processed

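Knee synovial RNA was read on 18 single-colour arrays; groups came from the labels. Each deposited scanner file held the fluorescence intensity of every spot, and the submitters' processing notes name Agilent Feature Extraction 10.7. That software subtracted background within an array and did no scaling between arrays, per the file headers. A series table that the authors deposited, with no stated scale, centring or direction, correlated with the log2 scanner signal at 0.989 to 1.000 and had column medians of 5.41 to 5.43. It was used as log2 values, in an alternative only.

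Spots of controls and outlier-flagged spots were dropped, spots of a probe averaged, and the 75th percentile of an array's gene probes subtracted from its log2 processed signals. A probe stayed if some group had it well above background on each of its 3 arrays (28271 of 41012), and the brightest such probe stood for a gene (23606 genes). Names were matched to the RefSeq gene table (GRCr8): 18028 probes by accession, 3168 by symbol, 400 by synonym, and 19416 kept the file's name. limma 3.58.1 in R 4.3.3 (lmFit, eBayes) fitted 1 mean per group over 18 arrays, with 12 residual and 2.29 prior degrees of freedom, and Benjamini-Hochberg adjustment over all genes at 0.05. The code was tested on simulated data. Single values were compared by exact permutation. Slides 1 to 5 served as a batch.

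The 44 genes, their split into mitotic and S phase genes, the promoter words and the lists were chosen with earlier results of these data known. Members named with all values are, for each role, the one with the smallest p over the 6 groups, and Mki67, Top2a, Pcna and Cdk1; of each further list, up to 4 with the smallest p. For a fold given as "at least", each array of the dim group entered at its own signal or its lowest signal well above background, whichever was higher. It is open to error where arrays of the bright group were themselves below background. The number of arrays limits the precision. Alternatives were the background correction, scaling, filters, probe choice, slide and leaving out each array.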

Additional observations from a re-analysis of the deposited data

How the results depend on the processing

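In every setting tried, including leaving out each of the 18 arrays, none of the 38 genes passed in any comparison (unadjusted counts are given with each comparison), except that 1 passed in AIA-hot less AIA with slide as a fixed block. Slide as a fixed block also moved the median difference to 1.24 there, to 0.85 in AIA-hot less control and to 1.23 in AIA-hot-WTD less AIA-hot. It moved to 2.04 in AIA-hot-WTD less control and to -0.31 in the difference of the WTD effects. With that block AIA-hot less AIA rests on slide 2 alone, and AIA-hot-WTD less AIA-hot on slide 3 alone. On slide 3 the only AIA-hot array was array 3, the lowest of all for the 38 genes. The 2.04 and -0.31 rest on that array too, so these values do not describe all arrays of the groups. Slide as a fixed block could not be fitted for AIA-cold against control, AIA or AIA-hot, or for AIA-cold-WTD against control. Normexp background correction moved the median to 0.17 in AIA-hot less AIA and to -0.03 in AIA-cold-WTD less control. It turned the sign of Cenpm in AIA-hot less control (-0.34), Aurkb in AIA-cold less AIA (-0.02), Mcm7 and Mcm6 in AIA-cold-WTD less control (-0.14 each) and Mcm7 and Tk1 in AIA-hot-WTD less control (-0.03 and -0.17), and Cenpm in AIA-cold less control turned to 0.17 with quantile normalization and 0.15 in the deposited series table. Leaving out 1 array gave medians of -0.68 to 0.10 in AIA-cold less AIA-hot. Normexp and testing without the filter moved the median of all genes by over 0.1, to between -0.24 and -0.14 in the comparisons with control. Counts over all genes moved more than 1.5-fold in most comparisons: 126 in AIA-cold less control became 0 to 297, 13 in AIA-hot less control 0 to 61, 19 in AIA-hot-WTD less control 0 to 85, and 7 in AIA-cold-WTD less control 0 to 101, or 3377 with no filter on dim probes. Apart from the slide block, where a value moved the cause was not tested. No paired analysis was possible because replicate numbers follow the order of deposition and pair no arrays.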
